A study of Mus musculus with 6 samples.

Results

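The interleukin-6 (IL-6) family and its feedback brakes were examined in microglia of mouse brain after experimental stroke. The 10 genes were chosen by symbol from a fixed list: the cytokine genes Il6, Osm and Lif, the receptor genes Il6ra and Il6st, the brake genes Socs1, Socs2, Socs3 and Cish, and the kinase gene Pim1. Each symbol matched 1 row, so the group held 10 of the 38207 genes and loci in the count table. RNA from isolated microglia of wild-type mice was sequenced as nanopore cDNA, from 3 libraries of sham-operated mice and 3 of mice given tMCAO, which commonly stands for transient occlusion of the middle cerebral artery. Every library pooled 30 mice, no group carried a transgene or drug according to the labels, and the age, the sex, the time after surgery and the isolation method were not given in the sources used here. The labels do not say how the pools were prepared, so a p-value here reflects only how far these pools differ.

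Cytokines of this family act through shared receptor chains. IL-6 binds its own receptor (encoded by Il6ra) and leukaemia inhibitory factor (Lif) binds the LIF receptor, and both complexes then use the common signal-transducing chain gp130 (Il6st), as does oncostatin M (Osm). The chains activate Janus kinases (JAK), which phosphorylate STAT transcription factors, above all STAT3. STAT proteins induce the genes of the SOCS family, whose products bind receptors or kinases and end the signal. CISH, SOCS1, SOCS2 and SOCS3 are members of that feedback family, and PIM1 is a survival kinase encoded by a STAT target gene. In injured brain, myeloid cells are a known source of oncostatin M and IL-6.

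The stretches before the annotated start sites show which short motifs of the controlling factors these genes hold. RefSeq promoters (build GRCm38.p6) were matched for 8 of the 10 members and searched on both strands over the 250 bases before each start. Osm and Socs2 had no entry. The motifs were TTCNNNGAA for STAT factors, GGG and TTTCC with any 2 bases between them for NF-kB, GAAA repeated after any 2 bases for interferon response elements (ISRE), and TGANTCA for AP-1. These occurred in 7.02%, 1.41%, 2.98% and 6.75% of all 32851 promoters of the table. Among the 9 promoters of members (Pim1 has 2), the Socs3 stretch held a STAT motif, that of Il6 an NF-kB and an AP-1 motif, that of Lif an AP-1 motif and that of Socs1 a pair of overlapping ISRE motifs. No match was found for Il6ra, Il6st, Cish or Pim1 in these windows. The 5 matches are shown with up to 20 bases on either side, read 5′ to 3′ in the direction of the gene, with the motif in capitals. The Socs3 motif lay 154 to 146 bases before the start (chr11:117969492-117969540, minus strand), that of Il6 for NF-kB 44 to 35 bases before it (chr5:30013050-30013099, plus strand) and for AP-1 249 to 243 bases before it (chr5:30012864-30012891, plus strand), that of Lif 228 to 222 bases before it (chr11:4257320-4257366, plus strand) and those of Socs1 83 to 68 bases before it (chr16:10785584-10785639, minus strand).
Socs3, STAT: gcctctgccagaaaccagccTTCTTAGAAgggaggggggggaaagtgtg
Il6, NF-kB: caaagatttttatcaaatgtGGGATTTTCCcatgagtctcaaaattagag
Il6, AP-1: cTGAGTCActtttaaagaaaaaaaagaa
Lif, AP-1: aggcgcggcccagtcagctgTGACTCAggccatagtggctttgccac
Socs1, ISRE: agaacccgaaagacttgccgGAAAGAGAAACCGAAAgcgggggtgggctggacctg

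Library totals were 2371235 to 2614512 counts in sham and 1855495 to 2030550 in tMCAO, so that 1 count equals 0.382 to 0.539 CPM (counts scaled to equal library totals). Microglial markers were abundant in every library, at summed levels of 28200 to 28650 CPM in sham and 24500 to 27870 CPM in tMCAO. Across tested genes, the deviations of sham 1 and tMCAO 3 from their group means correlated at 0.247. This was the highest of the 9 sham and tMCAO pairs, of which some pair must be the highest. Sham 1 and tMCAO 1 correlated at -0.203. Deviations from a group mean cancel within the group, so these values depend on each other. They cannot decide whether sham 1 and tMCAO 3 stand apart. Several results rest on sham 1 and tMCAO 3, and values without them are given beside those of the members. Markers of other cells also differed. Summed monocyte markers were 92.6 to 110 CPM in sham and 164 to 346 in tMCAO, border macrophage markers 184 to 231 and 386 to 496, and neutrophil markers 1888 to 2375 and 543 to 1927. Markers of cells from outside the immune system mostly had lower sums in tMCAO. Erythroid markers were at 958 to 6048 CPM in sham and 216 to 380 in tMCAO, and astrocyte markers at 142 to 423 and 69.4 to 93.2. Choroid plexus markers were at 8643 to 44710 CPM in sham and 2277 to 9973 in tMCAO. Only the last of these 3 overlapped between the groups, and in sham 2 it exceeded the microglial sum. Oligodendrocyte and neuron markers also had lower means in tMCAO. The mean of endothelial markers was higher in tMCAO (131 CPM in sham, 161 in tMCAO), with overlap between the groups. The part of these cells in the results that follow was not tested. Summed markers of T and NK cells stayed at or below 16.1 CPM in all 6 libraries. For none of these sums could the two-sided exact permutation test fall below p = 0.1, the smallest value for 3 libraries against 3 (0.1 for monocyte, border macrophage, erythroid and astrocyte markers, 0.2 for choroid plexus and 0.3 for neutrophil markers, or 0.18, 0.28 and 0.37 after Benjamini-Hochberg adjustment over 11 lists).

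After tMCAO, the members moved in different directions. Osm rose and Il6ra fell, while Il6, Il6st, Socs3 and Pim1 did not pass the test and Lif, Socs1, Socs2 and Cish had too few reads to enter it. Of the 6 members tested with edgeR's quasi-likelihood test, 1 was called higher, where 9.17% of all 13127 tested genes were, and 1 lower, where 8.96% were. With so few members, these shares say nothing particular about the group. The median log2 fold change of the 6 was 0.49, against 0.00 over all genes tested. In 3 of the 6, Il6, Osm and Socs3, every tMCAO library lay above every sham library, as in 23.3% of all tested genes, and in Il6ra every one lay below, as in 14.6%. Together 4 of the 6 did not overlap, against 37.8% of all tested genes. In pools of cells, a change in RNA per cell and a change in the number of cells of a type cannot be told apart.

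**Figure D1:**
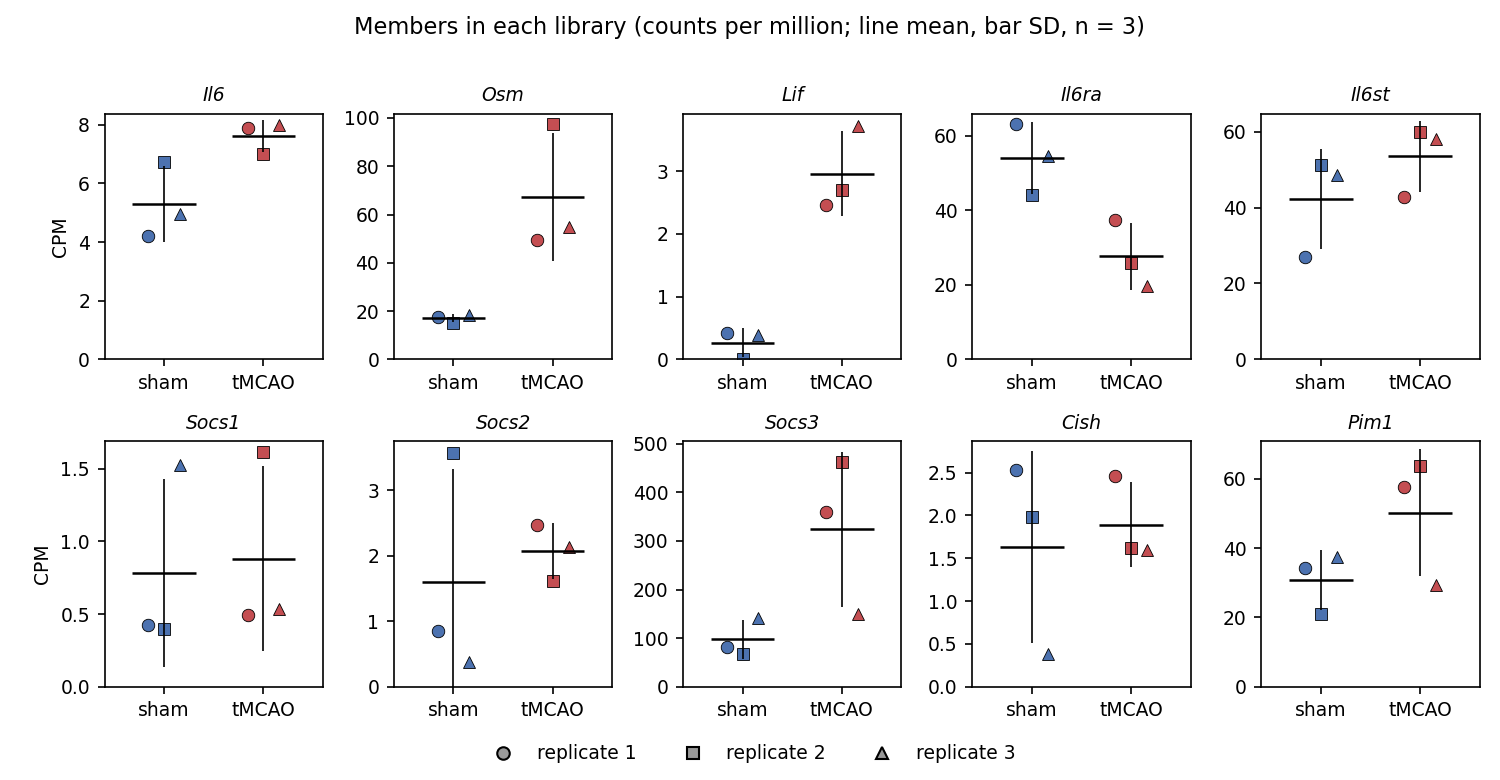
Level of each of the 10 members in CPM (vertical axis, from 0) in the 3 sham (blue) and 3 tMCAO libraries (red), with symbols for the replicate number, the mean as a line and the SD as a bar. Osm and Lif lie higher in all tMCAO libraries, Il6ra lies lower in all of them, and tMCAO 3 is the lowest tMCAO library for Socs3 (149 CPM) and Pim1 (29.3 CPM).

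Oncostatin M, which acts on gp130 together with a second receptor chain, was the ligand with the firmest change. Osm (ENSMUSG00000058755) had 17.7, 15.1 and 18.4 CPM in sham 1 to 3 and 49.2, 97.5 and 54.9 CPM in tMCAO 1 to 3. The sham libraries lay close together, the groups did not overlap, and tMCAO 2 was the highest. The means were 17.0 ± 1.75 and 67.2 ± 26.4 CPM (SD, n = 3 per group), a fold of 3.61 with a 95% interval of 2.44 to 5.34 (log2 fold change 1.85 ± 0.26 SE, edgeR adjusted p = 0.000507). Without tMCAO 2 the log2 fold change was 1.54. Neutrophils, monocytes and macrophages are also known to make Osm. In tMCAO 1 to 3 their summed markers were 1927, 543 and 1057 CPM for neutrophils, 346, 194 and 164 CPM for monocytes and 445, 386 and 496 CPM for border macrophages, the latter 2 above all sham libraries as Osm was. The part of these cells in the rise was not tested.

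Il6 (ENSMUSG00000025746), the founding cytokine of the family, was read at a low level in every library. It had 10, 17 and 13 counts in sham 1 to 3 (4.22, 6.74 and 4.97 CPM) and 16, 13 and 15 counts in tMCAO 1 to 3 (7.88, 7.01 and 7.99 CPM). All tMCAO libraries lay above all sham libraries, though tMCAO 2 exceeded sham 2 by little. The means were 5.31 ± 1.29 and 7.62 ± 0.538 CPM, and the difference did not pass (log2 fold change 0.39 ± 0.36, adjusted p = 0.489 with edgeR). The 95% interval of the fold ran from 0.765 to 2.26. At this depth a fold of 3.61, as found for Osm, lay outside that interval.

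Lif (ENSMUSG00000034394), a cytokine released by glia and immune cells after injury, had 1, 0 and 1 counts in sham and 5, 5 and 7 counts in tMCAO. Every tMCAO library held more than every sham library. Over the group, 2 counts of 7508559 (0.266 CPM, exact Poisson 95% interval 0.0323 to 0.962) stood against 17 of 5763825 (2.95 CPM, 1.72 to 4.72). The ratio of the sums was 11.1, with an exact 95% interval of 2.63 to 98.8 for counting error only. Reads amplified by PCR without molecular identifiers are not independent molecules. With no filter on low counts, Lif passed edgeR's quasi-likelihood test (log2 fold change 3.18 ± 0.98, adjusted p = 0.0137 over 31736 genes), its only fit. Adjusted p-values of that fit are not on the scale of the reported fit. By the same edgeR test, that of Osm was 2.2e-14 instead of 0.000507, and that of Socs3 0.135 instead of 0.0705.

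On the receptor side, the 2 chains of the IL-6 receptor differed in their results. Il6ra (ENSMUSG00000027947), the chain that binds IL-6 itself, had 63.3, 44.0 and 54.7 CPM in sham 1 to 3 and 37.4, 25.9 and 19.7 CPM in tMCAO 1 to 3. All tMCAO libraries lay below all sham libraries, and the gap between tMCAO 1 and sham 2 was the narrowest. The mean fell from 54.0 ± 9.65 to 27.7 ± 9.0 CPM, a fold of 0.473 (95% interval 0.334 to 0.670, log2 fold change -1.08 ± 0.23, edgeR adjusted p = 0.00694). Without sham 1 and tMCAO 3 together, the log2 fold change was -0.82 and the call was lost (edgeR adjusted p = 0.0543, the highest of its 15 alternatives, whose lowest was 0.000263). An antisense gene overlaps Il6ra in GENCODE M21, and without stated use of strand their reads could not be told apart.

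Il6st (ENSMUSG00000021756), the shared gp130 chain, had 27.0, 51.1 and 48.6 CPM in sham 1 to 3 and 42.8, 59.8 and 58.0 CPM in tMCAO 1 to 3. The groups overlapped, with the lowest value in sham 1. The means were 42.2 ± 13.3 and 53.6 ± 9.33 CPM, and the log2 fold change of 0.22 ± 0.26 did not pass (edgeR adjusted p = 0.60, 95% interval of the fold 0.789 to 1.72). Without sham 1, which set the direction, it was -0.04, and without sham 1 and tMCAO 3 together -0.14. The intervals of Il6ra and Il6st did not overlap, and the difference between these 2 genes was not tested.

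**Figure D2:**
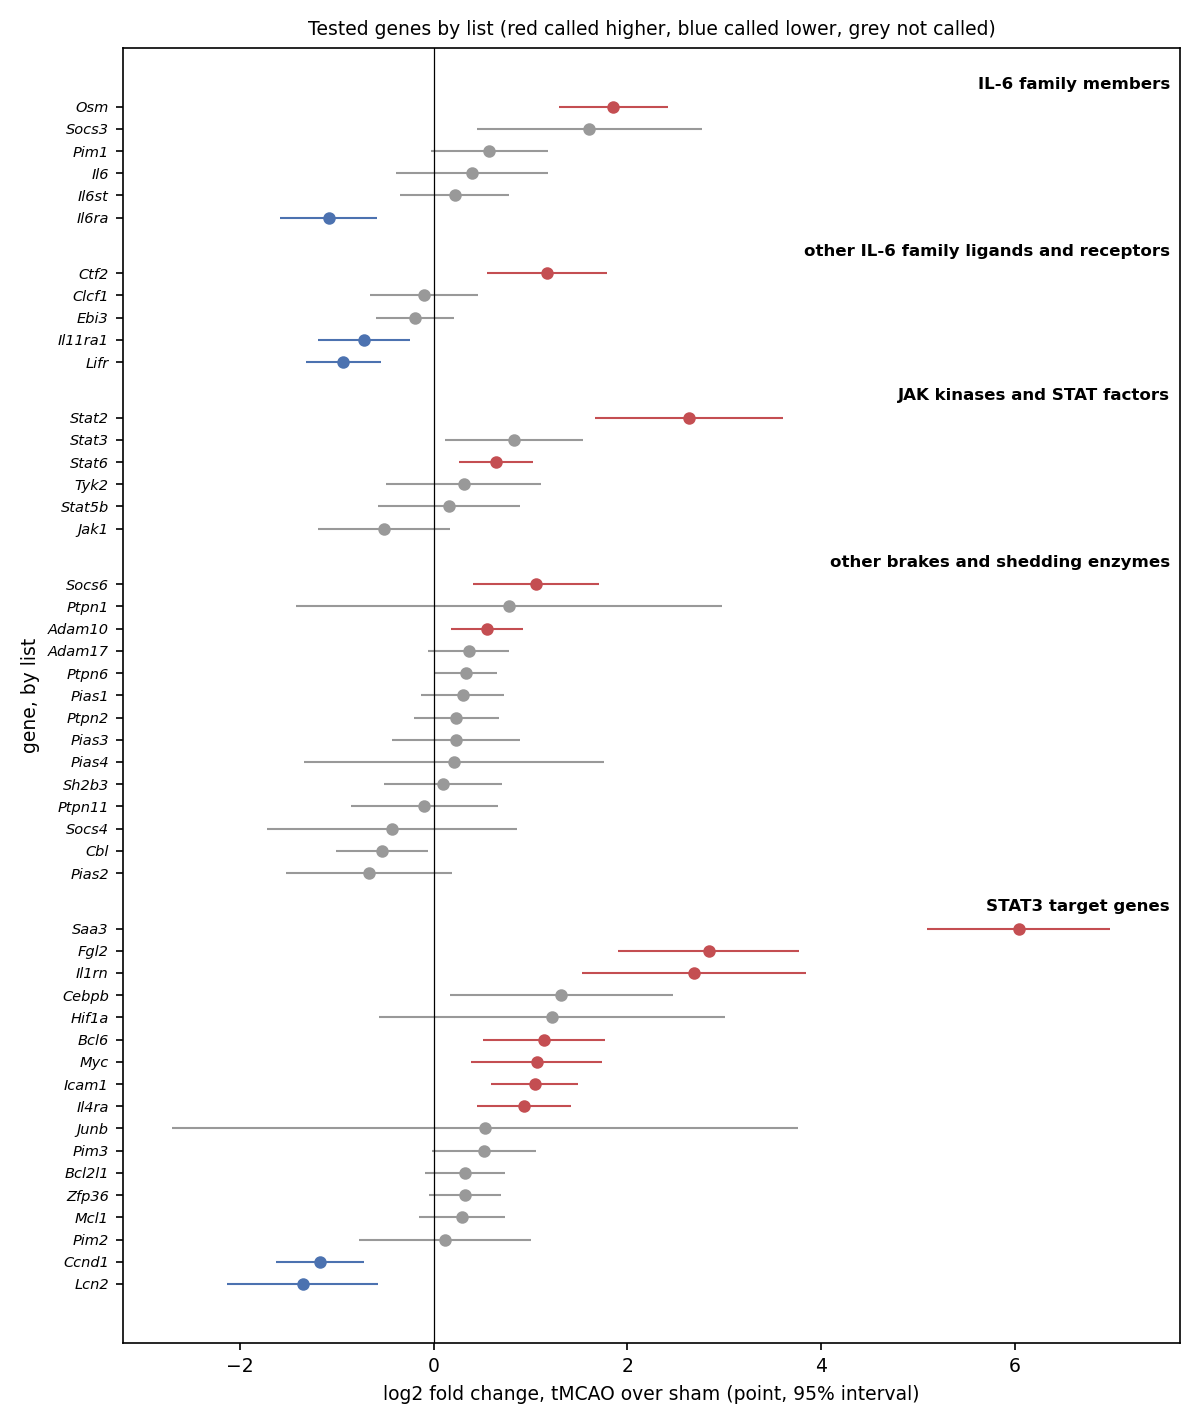
Log2 fold change of tMCAO over sham (horizontal axis) with its 95% interval for 48 tested genes of 5 lists, in red where called higher, blue where called lower and grey where not called. Among the members, Osm (1.85) and Il6ra (-1.08) are called, and the interval of Socs3 (1.61) is wide.

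Among the brakes, Socs3 held nearly all reads. Socs3 (ENSMUSG00000053113), the brake that binds gp130 and is the main feedback inhibitor of IL-6 signals, had 81.4, 67.8 and 142 CPM in sham 1 to 3 and 360, 463 and 149 CPM in tMCAO 1 to 3. Libraries tMCAO 1 and 2 lay far above all sham libraries, while tMCAO 3 was just above sham 3. The means were 97.2 ± 39.7 and 324 ± 160 CPM, and the log2 fold change of 1.61 ± 0.47 did not pass edgeR's test (adjusted p = 0.0705, 95% interval of the fold 1.36 to 6.81). It passed without tMCAO 3 (1.95, adjusted p = 0.00624), without sham 3 (1.95, 0.0471) and without sham 1 and tMCAO 3 together (1.80, 0.00916), and also with DESeq2 (4.22e-05), limma voom (0.0241) and edgeR without robust estimation (0.0137). Over its 15 alternatives, adjusted p ran from 4.22e-05 to 0.228, and 6 of them called Socs3 higher.

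Pim1 (ENSMUSG00000024014), the kinase gene downstream of STAT factors, had 34.2, 21.0 and 37.5 CPM in sham 1 to 3 and 57.6, 63.6 and 29.3 CPM in tMCAO 1 to 3. As for Socs3, tMCAO 1 and 2 were high, and tMCAO 3 lay among the sham libraries. The log2 fold change was 0.58 ± 0.28 (edgeR adjusted p = 0.173, 95% interval of the fold 0.981 to 2.26). Without tMCAO 3 it was 0.84 and passed (edgeR adjusted p = 0.0239), and over the alternatives adjusted p ran from 0.0239 to 0.415. An antisense gene also overlaps Pim1 in GENCODE M21.

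The low value in tMCAO 3 was shared by other genes of the pathway. Stat3, the main transcription factor of gp130, had 27.0, 29.7 and 35.2 CPM in sham 1 to 3 and 80.3, 71.7 and 27.7 CPM in tMCAO 1 to 3. Its log2 fold change of 0.83 ± 0.32 did not pass (edgeR adjusted p = 0.103), but was 1.17 without tMCAO 3 and then passed (0.00186, within a range of 0.000806 to 0.268). Junb and Hif1a, both on the list of STAT3 targets, were picked after their values were seen. Junb, an AP-1 subunit, had 66.6, 234 and 581 CPM in sham 1 to 3 and 622, 726 and 63.9 CPM in tMCAO 1 to 3, so that sham 1 and tMCAO 3 were the lowest libraries. Hif1a, the oxygen-sensitive transcription factor, had 24.5, 44.0 and 29.5 CPM in sham and 128, 106 and 20.8 CPM in tMCAO. What sets tMCAO 3 apart for these genes was not tested. Not all members had their low value there. Osm (49.2 CPM) and Il6st (42.8 CPM) were lowest among tMCAO libraries in tMCAO 1, while Il6ra (19.7 CPM) was lowest in tMCAO 3. Lif (5, 5 and 7 counts in tMCAO 1 to 3) and Il6 (16, 13 and 15) had too few counts to order these libraries.

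**Figure D3:**
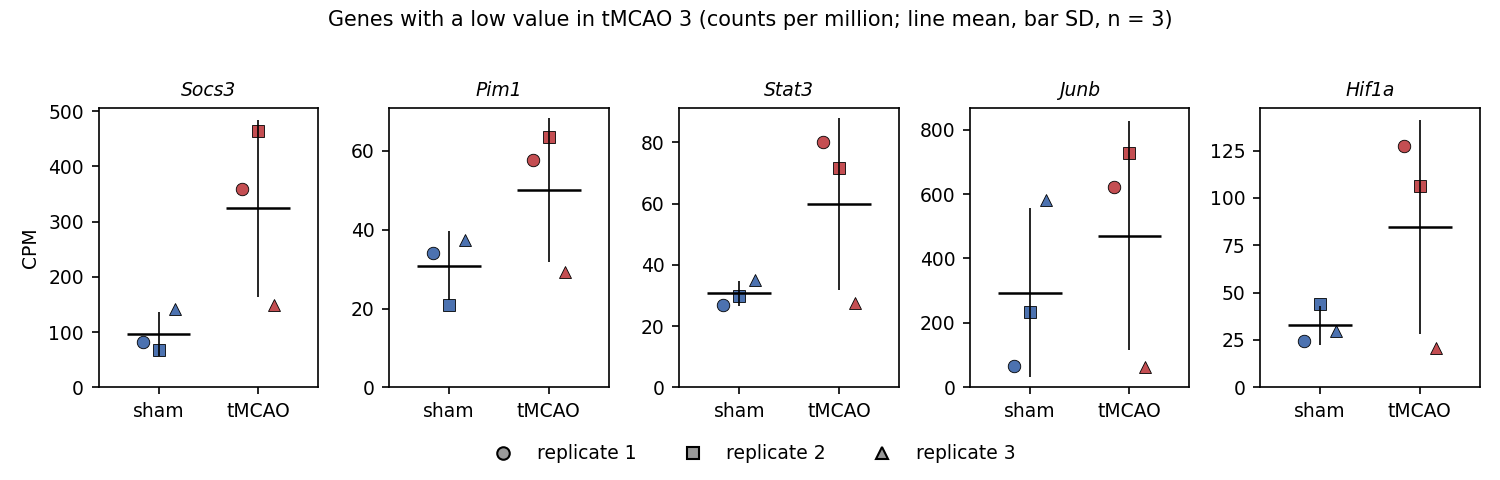
Level in CPM (vertical axis, from 0) of Socs3, Pim1, Stat3, Junb and Hif1a in the 3 sham (blue) and 3 tMCAO libraries (red), with the mean as a line and the SD as a bar. The triangle of tMCAO 3 (149, 29.3, 27.7, 63.9 and 20.8 CPM) lies far below tMCAO 1 and 2 in each panel; the 5 genes were picked for this pattern.

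The remaining brakes were close to the limit of detection. Socs1, which blocks JAK kinases and is best known as a brake on interferon signals, had 1, 1 and 4 counts in sham and 1, 3 and 1 in tMCAO. Socs2, a brake on growth hormone signals, had 2, 9 and 1 counts in sham and 5, 3 and 4 in tMCAO. Cish, a brake on STAT5 signals of several cytokine receptors, had 6, 5 and 1 counts in sham and 5, 3 and 3 in tMCAO. In all 3 genes the groups overlapped. The ratios of the summed counts, tMCAO over sham, were 1.09 for Socs1 (exact 95% interval 0.262 to 4.27), 1.30 for Socs2 (0.535 to 3.17) and 1.19 for Cish (0.477 to 2.96). These intervals cover counting error only, and the libraries of a group may differ by more. None passed edgeR's test with no filter on low counts (adjusted p of 0.970, 0.832 and 0.906). Reads of Cish could not be told apart from those of an antisense gene and a pseudogene that overlap it in GENCODE M21.

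Most other ligands and receptors of the family had few reads or none in these libraries. Of 16 genes listed, 6 had no count in any library and 5 were tested. Among those, Ctf2 rose, Lifr and Il11ra1 fell, and 2 did not pass, where 18.1% of all tested genes were called, and 5 genes are too few to set against that share. Lifr, the receptor chain that pairs with gp130 for LIF, had 132, 110 and 127 CPM in sham 1 to 3. In tMCAO 1 to 3 it had 68.9, 86.8 and 54.9 CPM. The groups did not overlap, and the mean fell from 123 ± 11.5 to 70.2 ± 16 CPM (log2 fold change -0.93 ± 0.18, edgeR adjusted p = 0.00362). Lifr was called lower under each of its 15 alternatives. Osmr, the specific oncostatin M receptor chain, had 2, 0 and 0 counts in sham and 1, 0 and 1 in tMCAO, at or under 3 counts per group, so that no fold is given.

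Ctf2, which encodes the cytokine neuropoietin, went from 9.32 ± 1.54 to 22.9 ± 6.21 CPM (log2 fold change 1.17 ± 0.29, edgeR adjusted p = 0.0138). It overlaps Ctf1 on the opposite strand in GENCODE M21, and its call was lost without sham 1, without sham 3, without tMCAO 1 or without sham 1 and tMCAO 3 together (adjusted p of up to 0.0681, lowest of all alternatives 0.00118). Il11ra1, the IL-11 receptor chain, went from 28.2 ± 0.859 to 18.6 ± 3.37 CPM (-0.72 ± 0.22, edgeR adjusted p = 0.0390), and 11 of its 15 alternatives lost the call (0.0248 to 0.139). It has a near-identical copy in Il11ra2 and overlaps several genes, so its counts are uncertain. The median of the 5 tested genes was -0.19.

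The gene lists were chosen with earlier results of these data known, so their shares of calls beside those of all genes are descriptions only. A gene with few reads in sham could enter the test through tMCAO alone, and the reverse, which can tilt these shares. Of the 11 genes of JAK kinases and STAT factors, 7 were tested, 3 rose and none fell, with a median log2 fold change of 0.64. Over all tested genes 9.17% rose and 8.96% fell. Among those that rose were Stat2 (2.64 ± 0.45, edgeR adjusted p = 0.00182), which carries interferon signals, and Stat6 (0.64 ± 0.18, adjusted p = 0.0242), which carries that of IL-4. Stat2 had 9, 10 and 2 counts in sham 1 to 3 and entered the test through its tMCAO counts. Stat6 lost the call in 7 of its 15 alternatives (0.0108 to 0.0917). Jak1, the kinase bound to gp130, was at 77.4 ± 7.84 CPM in sham and 59.5 ± 28.0 in tMCAO and did not pass (-0.51 ± 0.30, edgeR adjusted p = 0.278). The lowest library was tMCAO 3 at 28.2 CPM, and the log2 fold change was -0.18 without it, -0.15 without sham 1 and tMCAO 3 together and -0.78 without tMCAO 1. Stat5b did not pass either (0.16 ± 0.34, adjusted p = 0.781). Jak2 (29 sham and 22 tMCAO counts) and Stat5a (13 and 19 counts) were below the filter. Stat3 overlaps Stat5a on the opposite strand in GENCODE M21, and Stat6 and Cebpb likewise overlap Nab2 and Tmem189, so that reads of these neighbours could not be told apart.

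Other brakes and the proteases that shed IL-6 family receptors formed a list of 16 genes. Of these, 14 were tested, 2 rose and none fell, with a median of 0.23. That share of calls, 14.3%, was below the 18.1% of all tested genes called in either direction. Socs6, a further SOCS gene, had 8.01, 12.3 and 11.5 CPM in sham and 28.6, 29.1 and 14.9 CPM in tMCAO (1.05 ± 0.30, edgeR adjusted p = 0.0284). Adam10, a membrane protease, went from 48.7 ± 2.84 to 77.9 ± 11.7 CPM (0.55 ± 0.17, edgeR adjusted p = 0.0416). Without sham 1, without sham 3, without tMCAO 1 or without tMCAO 2, neither gene of the list was called. Adam17, the main protease that releases the soluble IL-6 receptor, was at 55.0 ± 10.9 and 77.1 ± 6.64 CPM and did not pass (0.36 ± 0.19, edgeR adjusted p = 0.218). Ptpn6, the phosphatase SHP-1 that removes phosphate from JAK kinases, was at 207 ± 19.0 and 282 ± 9.35 CPM and did not pass (0.34 ± 0.15, adjusted p = 0.137).

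Among 22 genes listed as targets of STAT3, 17 were tested, 7 rose and 2 fell, with a median log2 fold change of 0.94. The share called was 52.9%, against 18.1% of all tested genes. These genes have other regulators too, and the list does not single out STAT3. The list was chosen with earlier results of these data known, so its higher share is a description and no test. The filter on low counts can also tilt that share toward genes that rose. Saa3 (1, 2 and 1 counts in sham 1 to 3), Fgl2 (6, 5 and 2) and Il1rn (5, 1 and 4) entered the test through their tMCAO counts. Saa3, an acute-phase serum amyloid, had 0.422, 0.793 and 0.382 CPM in sham and 55.2, 44.7 and 26.6 CPM in tMCAO. Fgl2, a secreted immune regulator, went from 1.76 ± 0.904 to 13.9 ± 2.93 CPM (2.84 ± 0.43, edgeR adjusted p = 0.000852). Ccnd1, which encodes cyclin D1, fell from 62.3 ± 11.5 to 29.9 ± 5.19 CPM (-1.17 ± 0.21, edgeR adjusted p = 0.00232). The other gene that fell was Lcn2, the acute-phase protein lipocalin-2, which was named after its values were seen and went from 93.8 ± 14.8 to 40.0 ± 22.4 CPM (-1.35 ± 0.34, adjusted p = 0.0280). Lcn2 is also abundant in neutrophils. Their summed markers overlapped between the groups when scaled by library totals (exact permutation p = 0.3). With TMM scaling, as used for the fold of Lcn2, they were lower in all tMCAO libraries (exact permutation p = 0.1). The part of neutrophils in the fall was not tested. Cebpb (1.32 ± 0.53, edgeR adjusted p = 0.105), a transcription factor of the acute-phase response, and the PIM1 relatives Pim2 (0.11 ± 0.41, adjusted p = 0.882) and Pim3 (0.52 ± 0.25, adjusted p = 0.169) did not pass. Without sham 1, 4 genes of the list rose.

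Receptors of other cytokines that signal through JAK and STAT rose in 6 of 15 tested genes of 21 listed, and none fell (median 0.29), where 9.17% of all tested genes rose and 8.96% fell. Without sham 3, 3 of them rose. This list, too, was chosen with earlier results of these data known. Il2rg, the common gamma chain of several interleukin receptors, went from 7.55 ± 1.41 to 34.5 ± 3.67 CPM (2.06 ± 0.25, edgeR adjusted p = 0.000169). A protein-coding gene overlaps Il2rg on the same strand in GENCODE M21. Csf2ra, the GM-CSF receptor chain, went from 4.66 ± 0.306 to 21.6 ± 9.0 CPM (2.07 ± 0.36, adjusted p = 0.00192), and Il15ra, the receptor chain of IL-15, from 5.05 ± 1.13 to 16.4 ± 5.42 CPM (1.56 ± 0.35, adjusted p = 0.00830). Il6ra and Lifr fell in the same libraries in which these receptor genes rose. Of 12 genes of other JAK-STAT cytokines, 3 were tested, 1 rose and 1 fell, too few to set against the 9.17% and 8.96% of all tested genes. Il12b, the shared subunit of IL-12 and IL-23, rose from 0.910 ± 0.868 to 9.09 ± 5.97 CPM (3.11 ± 0.68, edgeR adjusted p = 0.00882), with 7 counts in all 3 sham libraries. It lost the call with limma voom and without sham 1 and tMCAO 3 together (adjusted p of up to 0.0671, lowest of all alternatives 1.27e-06). Its log2 fold change was 4.17 without sham 3, 2.41 without tMCAO 3 and 2.05 without sham 1 and tMCAO 3 together. Il15 was lower (-0.74 ± 0.24, edgeR adjusted p = 0.0469), a call that 12 of its 15 alternatives lost (0.0310 to 0.157). Il10, which signals through STAT3 as well, had 5 counts in sham and 9 in tMCAO.

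The genes most like Osm in pattern over the 6 libraries were Irf1 (Pearson r = 0.998), Usp18 (r = 0.996) and Lyst (r = 0.995). They were drawn from 5266 known genes whose average abundance, as edgeR computes it in log2 CPM, was 4 or more. Irf1, a transcription factor gene induced by interferon and cytokines, had 36.3, 31.3 and 35.6 CPM in sham and 56.6, 77.1 and 59.1 CPM in tMCAO. As for Osm, tMCAO 2 was the highest library. These correlations describe 6 libraries of 2 groups that share their depth and handling, and carry no test.

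Across the processing alternatives, the direction of Osm, Il6ra, Socs3, Pim1 and Il6 was the same in all 15. Osm was called in all of them, with log2 fold changes of 1.54 to 2.07. Scaling by library totals alone moved the median of all genes to 0.12, and Osm was then 1.97, Il6ra -0.96 and Il6st 0.34.

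**Figure D4:**
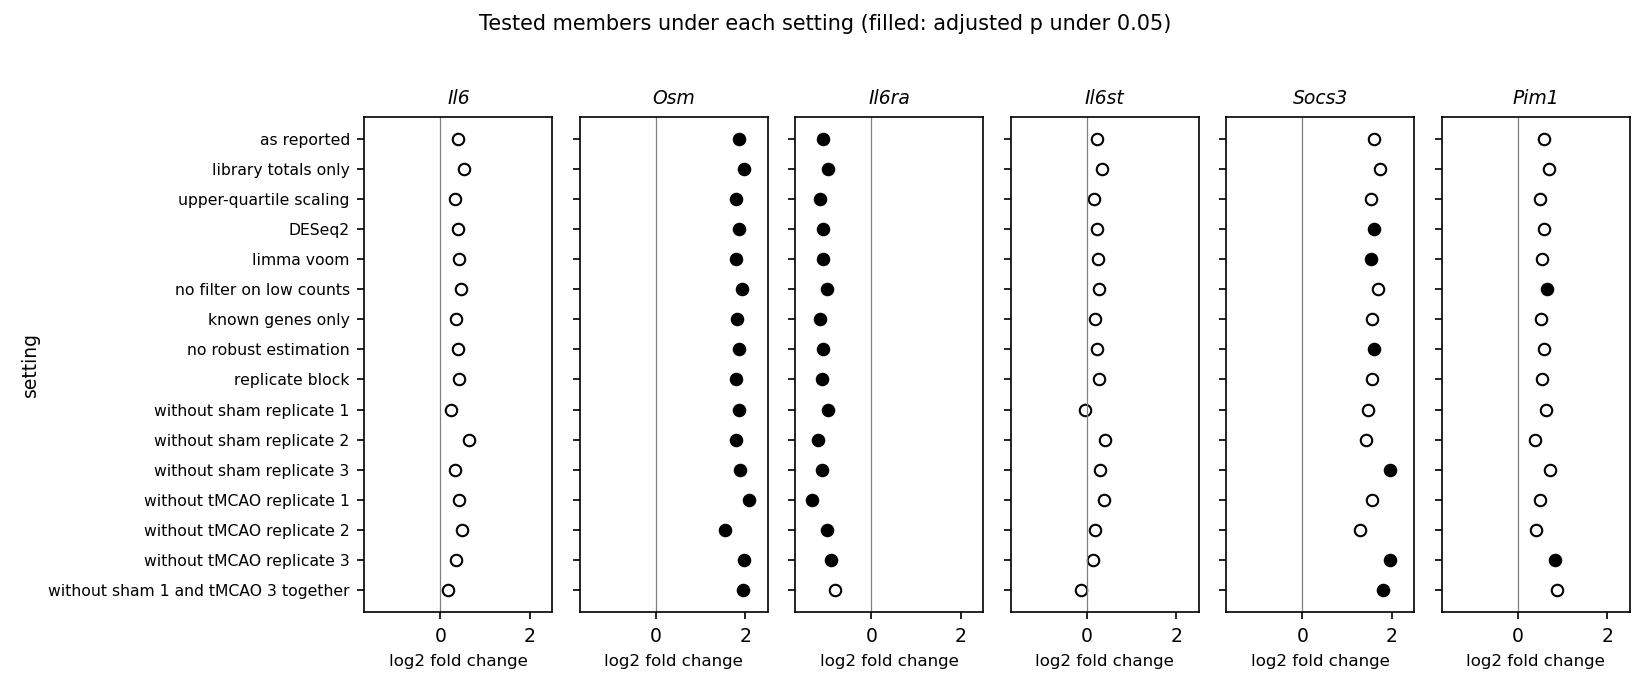
Log2 fold change (horizontal axis) of the 6 tested members as reported and under the 15 alternatives (vertical axis), with filled points where the adjusted p was under 0.05. Osm is filled throughout, Il6ra in all but the fit without sham 1 and tMCAO 3 together, and Socs3 in 6 alternatives.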

How the data were processed

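The deposited table holds raw counts per gene and library, and CPM that the authors scaled by library totals, per the file headers. Computed CPM differed from the deposited CPM by at most 4.87e-06. Of 38219 lines, 12 without values were left out. The submitters' processing notes name minimap2; its version, the build, annotation, counting rule and strand use were not given in the sources used here. The table of promoters was used only for sequences. In GENCODE M21, Socs6, Jak1, Fgl2, Ccnd1, Adam17 and Ptpn6 also overlap other genes, whose reads could not be told apart from theirs.

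Counts were tested with edgeR 4.0.16 (R 4.3.3): filterByExpr (minimum count 10, total 15), TMM scaling, robust quasi-likelihood F tests with group as the only term, and Benjamini-Hochberg adjustment over 13127 genes, called under 0.05. The SE is the absolute log2 fold change divided by the square root of F. The biological coefficient of variation was 22.6%. The code was tested on simulated data. Alternatives used DESeq2 1.42.0, limma 3.58.1, other scaling, filters and libraries.

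The members and lists were chosen with earlier results of these data known. Named genes are the members, up to 3 called genes per list with the smallest p, and 14 genes named in any case. Of the genes named by this rule, 1 is left out of the text and plots. F13a1 and Csf3r each stand in 2 lists.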

Additional observations from a re-analysis of the deposited data

How the results depend on the processing

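Of the members, 1 was called higher as reported. DESeq2, limma voom and edgeR without robust estimation called 2 higher, as did the fit without sham 1 and tMCAO 3 together, and the fit with no filter on low counts called 3. The lowest adjusted p given above for Il6ra, Stat3, Ctf2, Stat6 and Il12b came from the fit with no filter. With 1 library left out, 1 to 3 members were called higher. Without sham 1 and tMCAO 3 together, 0 were called lower instead of 1. The number of all genes called, 2380 as reported, was 4039 with no filter, 1523 with known genes only, 1573 without sham 1 and tMCAO 3 together, and 1254 to 2590 with 1 library left out. Calls were 64.0% higher with library totals only, against 50.6% as reported.

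The log2 fold change of Il6st ran from -0.04 (without sham 1, reversed) to 0.41 with 1 library left out, and reversed to -0.14 when sham 1 and tMCAO 3 were both left out. That of Stat5b ran from -0.04 (without tMCAO 2, reversed) to 0.40, and that of Pim2 from -0.07 (without tMCAO 1, reversed) to 0.34. The causes were not tested.

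Of the other family ligands and receptors, 1 rose as reported, 0 without sham 1 and tMCAO 3 together, and 0 to 1 with 1 library left out. The count that fell, 2 as reported, was 1 with library totals only, DESeq2, no filter, the replicate block and without sham 1 and tMCAO 3 together, and 1 with any 1 library left out. Among other brakes and shedding enzymes, 2 rose as reported, 1 with upper-quartile scaling, limma voom and known genes only, 0 with DESeq2 and the replicate block, and 0 to 2 with 1 library left out. Of the STAT3 targets, 4 to 7 rose and 1 to 2 fell with 1 library left out, and 1 fell without sham 1 and tMCAO 3 together. Of other JAK-STAT receptors, 3 to 7 rose with 1 library left out. Of other JAK-STAT cytokines, 0 instead of 1 rose with limma voom and without sham 1 and tMCAO 3 together, and 0 instead of 1 fell with library totals only, DESeq2, limma voom, no filter, no robust estimation, the replicate block and without sham 1 and tMCAO 3 together, and 0 to 1 with 1 library left out.

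The labels do not say that replicate numbers pair pools, and deviations of same-numbered libraries correlated at -0.203, 0.018 and -0.174. With the replicate block, 1 member was called higher and 1 lower, and 1662 of all genes were called. All 11 marker sums kept their direction with TMM scaling, under which that of neutrophils did not overlap between the groups (exact permutation p = 0.1, 0.16 adjusted). The depth of 1855495 to 2614512 counts left Lif, Socs1, Socs2 and Cish outside the test.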
